A study of Mus musculus with 8 samples.

Results

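The genes described here encode the machinery that carries a signal from a G protein-coupled receptor to cyclic AMP (cAMP): heterotrimeric G protein subunits, adenylyl cyclases, protein kinase A (PKA), phosphodiesterases, regulators of G protein signalling, receptor kinases, arrestins and the transcription factor arm. They were chosen by gene name, as components downstream of the deleted receptor, with earlier results of these data known. Each was found on the arrays through the accession of its probes. All 55 genes had at least 1 probe, 87 probes in all, among the 21368 genes that could be named on the array. Of these 55 genes, 36 (65.5%) were tested, having a probe that 4 or more of the 8 arrays read as well above background, against 51.8% of all named genes, which left 11072 genes tested in all.

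Global mRNA was measured in 4 hCNR1+/+ and 4 hCNR1−/− samples of isolated mouse hepatocytes, each on 1 Agilent array with the dye Cy3. The hCNR1−/− mice (genotype label hCNR1_cKO, strain CNRO Alb-Cre) carried a floxed *Cnr1*, the gene of the cannabinoid receptor CB1R, together with a Cre recombinase driven by the albumin promoter, which is active in hepatocytes. The hCNR1+/+ controls (genotype label hCNR1_WT, strain CNRO) were their littermates. All mice were males of 12 to 14 weeks on a standard diet, with no injury given. Of the 8 arrays 0 read the only probe of *Cnr1* as well above background, so the arrays do not check the genotype labels. The control arrays filled row 1 and the hCNR1−/− arrays row 2 of a single slide, so row and genotype cannot be told apart.

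In a resting G protein, an alpha subunit holds GDP and is bound to a beta and gamma pair. An activated receptor exchanges GDP for GTP on the alpha subunit, which then parts from the pair. Alpha subunits of the stimulatory class activate adenylyl cyclase and raise cAMP, those of the inhibitory class lower it, and those of the Gq class act through phospholipase C. CB1R couples mainly to the inhibitory class. In the hepatocyte, glucagon acts through the stimulatory class, and cAMP activates PKA, which phosphorylates CREB and drives gluconeogenic genes such as *Pck1* and *G6pc*. Phosphodiesterases remove cAMP, and regulators of G protein signalling (RGS proteins) speed the return of the alpha subunit to its resting form.

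Levels below are log2 of the spot intensity minus the 75th percentile of the array, so a level of 0 is the 75th percentile of all spots. They compare arrays for 1 probe and do not rank genes. Values per array are listed in the order of the replicate numbers, and SE is the standard error of limma. Fold changes are hCNR1−/− over hCNR1+/+, and adjusted p-values are Benjamini-Hochberg values of limma over the 11072 genes. The 75th percentile ran from 29.3 to 139 intensity units, between 28.6% and 42.3% of the spots were well above background, and 0 spots were saturated. The dimmest array on both counts was hCNR1−/− replicate 4, whose mean correlation within its genotype was 0.942, against 0.972 to 0.975 for the rest of that genotype. Each of the 16 hepatocyte markers was detected on all arrays, with a mean log2 level of 7.68 to 8.18 in hCNR1+/+ and 7.70 to 8.13 in hCNR1−/− preparations.

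Of the 36 tested genes, *Rgs2*, *Pde4a* and *Gnb5* fell and *Gnai3* rose in hCNR1−/− hepatocytes at an adjusted p below 0.05. These are an RGS protein, a cAMP phosphodiesterase, a G protein beta subunit and an inhibitory alpha subunit. Only 1 of the 4 hCNR1−/− arrays read *Pde4a* above background, so its value is set against levels mostly not above background. Together they are 11.1% of the tested members, against 4.24% of all tested genes. The members were chosen with earlier results of these data known, so the shares given here are not an independent test. The 3 genes that fell are 8.33% of the tested members, where 1.3% of all tested genes fell, and the 1 gene that rose is 2.78%, where 2.94% of all tested genes rose. At a fold change above 2 with an unadjusted p below 0.05, 8 members (22.2%) were called, against 8.53% of all tested genes. Of them 5 were lower and 3 higher (13.9% and 8.33%), against 3.75% and 4.78% of all tested genes. In 9 members (25%) the 4 hCNR1−/− arrays did not overlap the 4 hCNR1+/+ arrays, against 17.8% of all tested genes. The median log2 fold change of the members was 0.21, beside 0.08 over all tested genes. By sign, 20 members were higher and 16 lower with this scaling, so 55.6% were higher, near the 56.6% of all tested genes. Without scaling 8 were higher and 28 lower, where the median was −0.35 in the members and −0.47 over all tested genes.

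**Figure D1:**
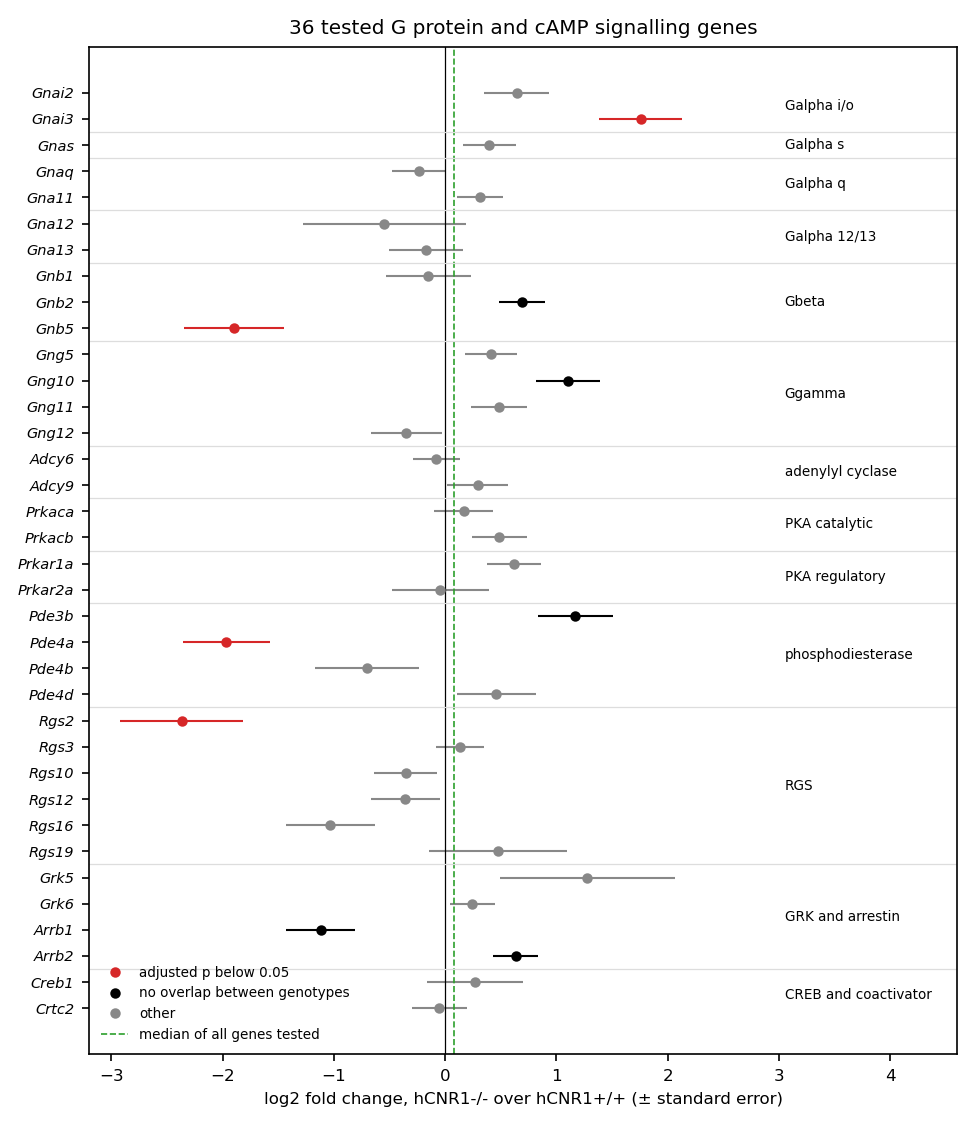
Log2 fold change (points) with the standard error of limma (bars) of the 36 tested genes, grouped by role, hCNR1−/− over hCNR1+/+ with 4 arrays each. *Rgs2*, *Pde4a* and *Gnb5* lie at −2.37, −1.97 and −1.90, *Gnai3* lies at 1.76, and the dashed line marks the median of all tested genes at 0.08.

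The promoters of these 4 genes are shown because they are the members that passed the test, and the motif searched is the cAMP response element bound by CREB. RefSeq sequences of the assembly GRCm38.p6 held upstream windows of 250 bases for 44 of the 55 members, 75 windows in all since some genes have several start sites. The full element TGACGTCA, which is its own reverse complement, was found in 1 of the 44 genes (2.27%), *Prkar1a*, against 1.77% of all 27025 genes with a window. The core TGACG or its reverse complement CGTCA, which also lies within the full element, was found in 14 of 44 genes (31.8%) against 19.8% of all genes, and in 24% of the 75 windows against 17.8% of all windows. Members with several windows have more chances of a match, and a match is a description of the letters. Each line below runs 5′ to 3′ on the strand of the gene and ends at the base before the start of transcription, and the core is in capitals.
*Rgs2*, chr1:144004150-144004399, minus strand: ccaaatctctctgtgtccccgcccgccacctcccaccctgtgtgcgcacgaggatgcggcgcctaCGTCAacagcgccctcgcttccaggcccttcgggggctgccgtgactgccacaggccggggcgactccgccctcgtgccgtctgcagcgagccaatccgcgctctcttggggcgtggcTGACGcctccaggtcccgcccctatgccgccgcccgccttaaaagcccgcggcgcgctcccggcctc
*Pde4a*, chr9:21183851-21184100, plus strand: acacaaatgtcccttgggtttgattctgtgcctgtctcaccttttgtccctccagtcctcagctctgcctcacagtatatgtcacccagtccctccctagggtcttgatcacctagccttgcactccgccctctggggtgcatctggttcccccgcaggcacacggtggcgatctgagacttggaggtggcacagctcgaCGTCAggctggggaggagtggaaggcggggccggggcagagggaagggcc
*Gnb5*, chr9:75306038-75306287, plus strand: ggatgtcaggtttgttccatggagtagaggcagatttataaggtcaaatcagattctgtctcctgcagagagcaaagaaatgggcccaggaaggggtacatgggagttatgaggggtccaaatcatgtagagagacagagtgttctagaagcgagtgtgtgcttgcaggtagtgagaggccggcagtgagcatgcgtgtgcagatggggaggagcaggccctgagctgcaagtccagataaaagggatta
*Gnai3*, chr3:108146153-108146402, minus strand: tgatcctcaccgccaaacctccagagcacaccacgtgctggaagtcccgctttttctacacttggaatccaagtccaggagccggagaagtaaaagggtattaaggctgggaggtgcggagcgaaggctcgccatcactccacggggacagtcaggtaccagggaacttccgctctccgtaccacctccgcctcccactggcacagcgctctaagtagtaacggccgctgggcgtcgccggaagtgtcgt

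The *Rgs2* window held 2 cores on opposite strands, beginning 185 and 67 bases upstream of the start. The *Pde4a* window shown belongs to 1 of 3 start sites and held 1 core beginning 50 bases upstream, and the windows of its other start sites held 0. The windows of *Gnb5* and *Gnai3* held 0 cores.

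*Rgs2* encodes an RGS protein known for its preference for Gq. Its log2 level was 2.08, 2.57, 2.80 and 3.44 on the hCNR1+/+ arrays and 0.16, 0.92, 1.57 and −1.23 on the hCNR1−/− arrays. Every hCNR1−/− array lay below every hCNR1+/+ array, and hCNR1−/− replicate 4, where the probe was not well above background, was the lowest. The means were 2.72 ± 0.56 and 0.36 ± 1.20 (SD, n = 4), 5.16-fold lower in hCNR1−/− hepatocytes (log2 fold change −2.37, SE 0.55, adjusted p = 0.0473). Without hCNR1−/− replicate 4 the log2 fold change was −1.84 (adjusted p = 0.0267), and without any other array the adjusted p ran from 0.0647 to 0.13.

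*Pde4a* encodes a phosphodiesterase specific for cAMP. Its levels were −0.66, −0.79, −0.92 and −0.0013 on the hCNR1+/+ arrays and −1.58, −2.30, −3.35 and −2.99 on the hCNR1−/− arrays. The groups did not overlap. All 4 hCNR1+/+ arrays but only 1 of 4 hCNR1−/− arrays read the probe as well above background, so the gene entered the test through the hCNR1+/+ arrays. The means were −0.59 ± 0.41 and −2.56 ± 0.78 (SD, n = 4), with a log2 fold change of −1.97 (SE 0.39, adjusted p = 0.0303). With the normexp background correction it was −0.52. The adjusted p was 0.0341 without hCNR1−/− replicate 1 and 0.0297 without hCNR1−/− replicate 4, and 0.0615 to 0.0844 without any other array.

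*Gnb5* encodes the beta subunit that pairs with a subset of RGS proteins. Its levels were −0.09, 0.21, 1.01 and 1.79 on the hCNR1+/+ arrays and −1.42, −1.0, −0.37 and −1.89 on the hCNR1−/− arrays, again with no overlap. The probe was well above background on 4 hCNR1+/+ and 3 hCNR1−/− arrays. The means were 0.73 ± 0.84 and −1.17 ± 0.64 (SD, n = 4), with a log2 fold change of −1.90 (SE 0.45, adjusted p = 0.0494). It was −0.83 with normexp. With any 1 of the 8 arrays left out the adjusted p was above 0.05, from 0.0516 to 0.143.

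*Gnai3* encodes an inhibitory alpha subunit. Its levels were 2.27, 1.62, 1.26 and 1.04 on the hCNR1+/+ arrays and 2.90, 2.73, 3.39 and 4.19 on the hCNR1−/− arrays, and the probe was well above background on all 8 arrays. Every hCNR1−/− array lay above every hCNR1+/+ array, from 1.55 ± 0.54 to 3.30 ± 0.66 (SD, n = 4). This was a 3.38-fold rise (log2 fold change 1.76, SE 0.38, adjusted p = 0.0376). The adjusted p was 0.0404 without hCNR1+/+ replicate 1 and 0.026 without hCNR1−/− replicate 4, and 0.0599 to 0.118 without any other array.

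Since their groups do not overlap, the two-sided exact permutation test of each of these 4 genes lies at its floor, p = 0.0286 with 70 ways of splitting the arrays, as it does for the 17.8% of all tested genes without overlap. All 4 kept their sign in each of the up to 21 alternatives run for them. Leaving out an array could not turn a sign, since the groups do not overlap. The filters on dim probes, the variance model and the replicate block left the log2 fold change of the genes they kept unchanged. A sign could have turned only with the other alternatives, such as the scaling or the background correction. Their adjusted p was below 0.05 in 6 of 20 for *Rgs2*, 7 of 20 for *Pde4a*, 4 of 20 for *Gnb5* and 7 of 21 for *Gnai3*.

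**Figure D2:**
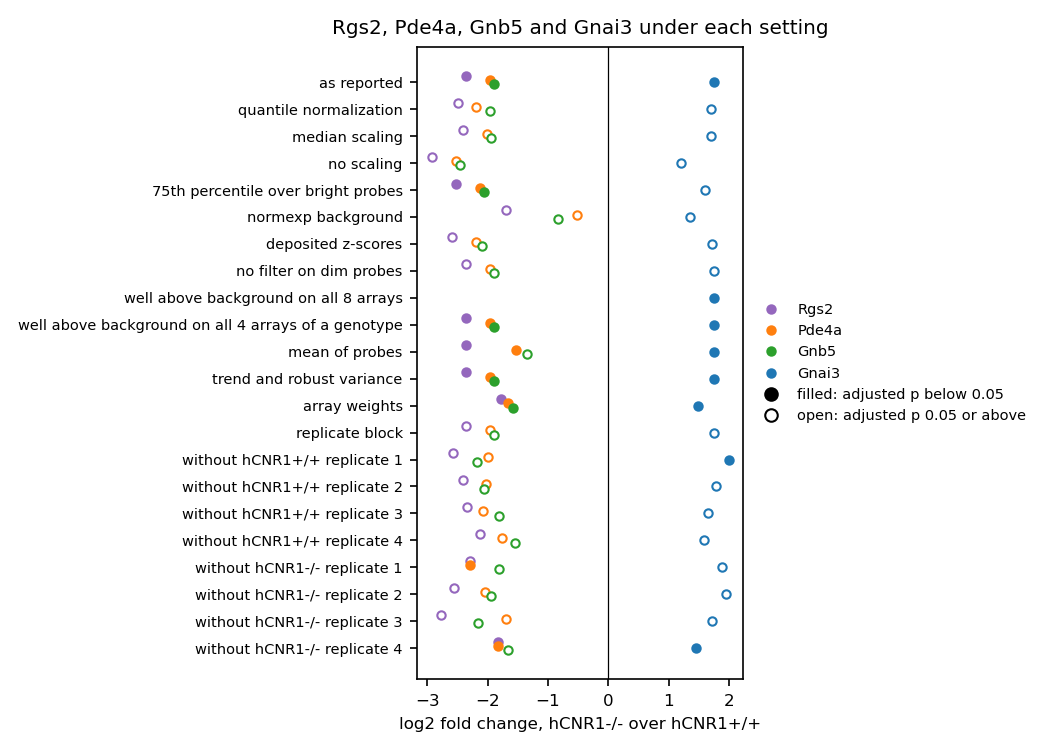
Log2 fold change of *Rgs2*, *Pde4a*, *Gnb5* and *Gnai3* (horizontal axis) under the reported processing and each alternative (rows), filled where the adjusted p was below 0.05. Normexp moves *Pde4a* to −0.52 and *Gnb5* to −0.83, and every point stays on its side of 0. Leaving out an array could not move a point across 0, since the groups do not overlap.

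Macrophage markers were lower in the hCNR1−/− preparations too. Of 16 Kupffer cell and macrophage markers 11 were tested, and all 11 had a negative log2 fold change, also under each scaling tried. *Marco* (−2.41) and *Ctss* (−1.89) passed the adjusted test, and *Timd4*, *Cd163* and *Fcgr1* were well above background on 0 arrays. The mean log2 level of the 11 tested markers ran from 1.23 to 2.43 in hCNR1+/+ and from 0.19 to 1.01 in hCNR1−/− preparations, without overlap. Fewer cells of a type and less RNA per cell cannot be told apart in such preparations, and the part of this shift in the values of *Rgs2*, *Pde4a*, *Gnb5* and *Arrb1* was not tested. Endothelial markers were closer, with 7 of 11 tested markers lower (10 without scaling) and means of 0.27 to 1.00 in hCNR1+/+ and 0.31 to 0.57 in hCNR1−/− preparations. All 3 tested stellate cell and pericyte markers of 13 were lower, with means of 0.95 to 1.25 and 0.06 to 1.51. The 3 tested lymphocyte markers of 14 were higher (2 of 3 without scaling), with means of 3.57 to 4.01 and 3.98 to 5.30, and the part of these lists was not tested either. Of neutrophil and cholangiocyte markers 2 each were tested, 1 lower and 1 higher (both cholangiocyte markers lower without scaling).

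Among the other alpha subunits none passed the test. *Gnai2*, of the same inhibitory class as *Gnai3*, had levels of 6.0, 5.69, 5.80 and 5.46 on the hCNR1+/+ arrays and 6.20, 6.15, 5.98 and 7.20 on the hCNR1−/− arrays. In 3 of 4 hCNR1−/− arrays it lay above every hCNR1+/+ array, with a log2 fold change of 0.64 (SE 0.29, adjusted p = 0.236). *Gnai1* and *Gnao1*, the other members of that class on the list, were well above background on 0 arrays and have no fold change.

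*Gnas*, which encodes the stimulatory alpha subunit, had levels of 6.74, 6.71, 6.77 and 6.51 on the hCNR1+/+ arrays and 7.34, 7.29, 7.20 and 6.48 on the hCNR1−/− arrays. The first 3 hCNR1−/− arrays lay above all controls, and replicate 4 lay below them. The log2 fold change was 0.40 (SE 0.24, adjusted p = 0.365) with all arrays and 0.60 (adjusted p = 0.0331) without hCNR1−/− replicate 4. Without that array 10.1% of all tested genes rose at an adjusted p below 0.05, against 2.94% with all arrays. With another array left out the adjusted p of *Gnas* reached 0.544, and its log2 fold change was −0.16 without scaling. Of the Gq class, *Gna11* was at 3.97 ± 0.28 and 4.28 ± 0.14 (SD, n = 4; log2 fold change 0.31, adjusted p = 0.423), *Gnaq* had a log2 fold change of −0.24 (adjusted p = 0.603), and *Gna14* was on 0 arrays well above background. *Gna13* was at 2.30 ± 0.49 and 2.13 ± 0.53 (SD, n = 4). For *Gna12*, of the same class, hCNR1+/+ replicate 2 stood at 1.23 while the other controls lay at −2.25 to −1.96, and its fold change turned from −0.55 to 0.29 without that array.

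The 3 beta and 4 gamma subunit genes tested held 2 further genes with no overlap, both higher in hCNR1−/− hepatocytes. Of all tested genes 17.8% had no overlap. *Gnb2* had levels of 7.87, 7.92, 7.97 and 7.96 on the hCNR1+/+ arrays and 8.49, 8.65, 8.33 and 9.03 on the hCNR1−/− arrays. The controls lay within a narrow band, and the log2 fold change was 0.69 (SE 0.21, adjusted p = 0.091). *Gng10* had levels of 0.17, 0.11, 0.44 and −0.05 on the hCNR1+/+ arrays and 0.83, 1.14, 1.07 and 2.07 on the hCNR1−/− arrays (log2 fold change 1.11, SE 0.29, adjusted p = 0.0608). Without hCNR1−/− replicate 4, the array with the highest level of both, the log2 fold changes were 0.56 and 0.84 and the adjusted p-values 0.041 and 0.0232. These p-values reached 0.219 and 0.133 with another array left out.

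*Gng5* was at 7.93 ± 0.18 and 8.34 ± 0.36 (SD, n = 4), a log2 fold change of 0.41 (adjusted p = 0.337), which was 0.59 (adjusted p = 0.0466) without hCNR1−/− replicate 4. Its adjusted p reached 0.531 with another array left out. *Gnb1*, *Gng11* and *Gng12* had log2 fold changes of −0.15, 0.48 and −0.35, with adjusted p-values of 0.849, 0.302 and 0.558. On the probes used, *Gnb1* and *Gng12* shared one feature, a hCNR1−/− replicate 4 well below the other 7 arrays (2.66 and 2.59). The other probe of *Gnb1*, well above background on 4 hCNR1+/+ and 3 hCNR1−/− arrays, gave −0.90 (SE 0.62). That of *Gng12*, well above background on 4 and 4, gave −0.79 (SE 0.26). *Gnb3* and *Gng2* were well above background on 1 array each and *Gnb4* on 0.

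**Figure D3:**
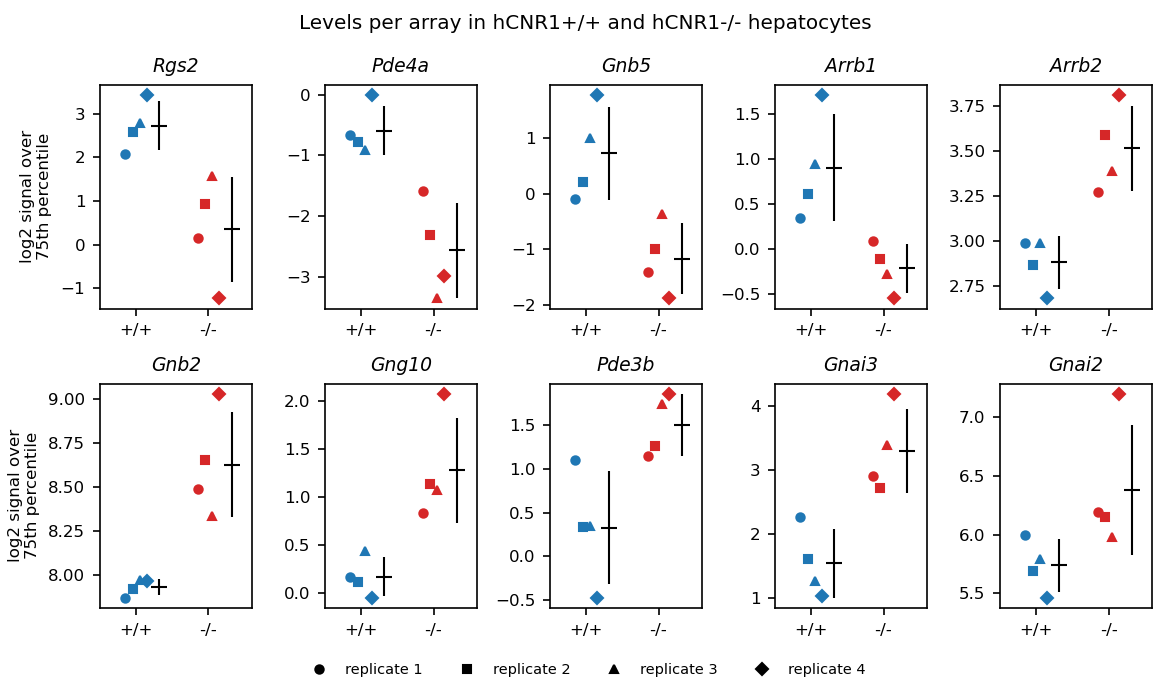
Log2 level over the 75th percentile of the array (vertical axis, own scale per gene) for the 9 members whose genotypes did not overlap and for *Gnai2*, with 1 symbol per replicate number and the mean and SD of 4 arrays beside the points. *Rgs2*, *Pde4a*, *Gnb5* and *Arrb1* lie lower and *Arrb2*, *Gnb2*, *Gng10*, *Pde3b* and *Gnai3* higher on all 4 hCNR1−/− arrays.

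The adenylyl cyclases, the enzymes that make cAMP, had the lowest share of genes detected among the roles, and of 9 on the list *Adcy6* and *Adcy9* were tested. *Adcy9* had levels of 3.60, 3.28, 3.28 and 2.90 on the hCNR1+/+ arrays and 3.64, 3.06, 3.40 and 4.13 on the hCNR1−/− arrays, overlapping groups with a log2 fold change of 0.29 (SE 0.27, adjusted p = 0.569). *Adcy6* was at −0.01 ± 0.25 and −0.09 ± 0.21 (SD, n = 4; log2 fold change −0.08, SE 0.21, adjusted p = 0.856). *Adcy4* was well above background on 2 hCNR1+/+ arrays and 0 hCNR1−/− arrays, *Adcy5* on 0 and 1, and *Adcy1*, *Adcy3*, *Adcy7*, *Adcy8* and *Adcy10* on 0 of 8.

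**Figure D4:**
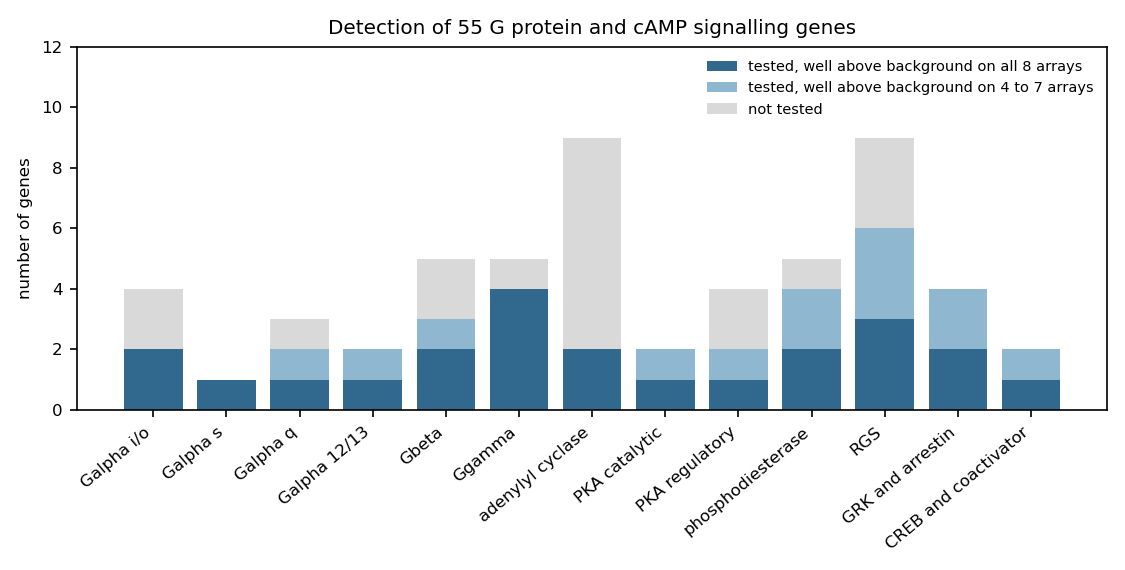
Number of genes (vertical axis) of each role that were tested and well above background on all 8 arrays, tested on 4 to 7 arrays, or not tested. Of 55 genes 23 were well above background on all arrays, and 2 of 9 adenylyl cyclases were tested.

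PKA holds 2 catalytic subunits in an inactive complex with 2 regulatory subunits until cAMP binds the latter. Of the catalytic subunits, *Prkacb* had levels of 3.26, 2.82, 3.16 and 3.53 on the hCNR1+/+ arrays and 3.84, 3.25, 3.55 and 4.06 on the hCNR1−/− arrays. In 3 of 4 hCNR1−/− arrays it lay above all controls (log2 fold change 0.49, SE 0.25, adjusted p = 0.29). Its other probe, well above background on 4 hCNR1+/+ and 3 hCNR1−/− arrays, gave −0.75 (SE 0.42). *Prkaca* had a log2 fold change of 0.17 (adjusted p = 0.748). The regulatory subunit gene *Prkar1a* had levels of 6.88, 7.02, 6.57 and 6.62 on the hCNR1+/+ arrays and 7.58, 7.67, 7.51 and 6.82 on the hCNR1−/− arrays. Here replicate 4 alone overlapped the controls (log2 fold change 0.62, SE 0.24, adjusted p = 0.179), and without it the log2 fold change was 0.81 (adjusted p = 0.0233). With another array left out the adjusted p reached 0.389. The other *Prkar1a* probe, well above background on 4 hCNR1+/+ and 3 hCNR1−/− arrays, gave −1.15 (SE 0.56). *Prkar2a* gave −0.04 (adjusted p = 0.968), and *Prkar1b* and *Prkar2b* were well above background on 0 arrays.

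The phosphodiesterases lay on both sides of 0. Beside the fall of *Pde4a*, the gene *Pde3b*, whose product hydrolyses cAMP and is activated downstream of insulin, had levels of 1.10, 0.33, 0.35 and −0.47 on the hCNR1+/+ arrays and 1.14, 1.26, 1.74 and 1.85 on the hCNR1−/− arrays. The highest control (1.10) lay just below the lowest hCNR1−/− array (1.14), with a log2 fold change of 1.17 (SE 0.34, adjusted p = 0.0817). *Pde4b*, well above background on 3 hCNR1+/+ and 2 hCNR1−/− arrays, had levels of −1.90, −1.88, −1.30 and −0.27 on the hCNR1+/+ arrays and −1.33, −1.38, −2.57 and −2.89 on the hCNR1−/− arrays (log2 fold change −0.70, SE 0.47, adjusted p = 0.423). These groups overlapped. *Pde4d* gave 0.46 (adjusted p = 0.485), and *Pde8a* was well above background on 0 arrays.

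Of the 6 tested RGS genes, 4 had a negative log2 fold change, 1 of them past the adjusted test (*Rgs2*), and 6 without scaling. *Rgs16*, whose product acts on the inhibitory and Gq classes, had levels of 5.37, 5.16, 5.16 and 6.15 on the hCNR1+/+ arrays and 4.13, 5.34, 4.73 and 3.52 on the hCNR1−/− arrays. In 3 of 4 hCNR1−/− arrays it lay below all controls, and replicate 2 lay among them (log2 fold change −1.03, SE 0.40, adjusted p = 0.173). *Rgs10*, *Rgs12*, *Rgs3* and *Rgs19* had log2 fold changes of −0.35, −0.36, 0.13 and 0.47, with adjusted p-values from 0.505 to 0.749. *Rgs19* was at 1.16 (adjusted p = 0.0438) without hCNR1−/− replicate 4, where its probe was not well above background. The adjusted p of *Rgs19* reached 0.942 with another array left out. *Rgs4*, *Rgs5* and *Rgs14* were well above background on 0 arrays.

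The 2 arrestins, which bind phosphorylated receptors and uncouple them from the G protein, lay on opposite sides. *Arrb1* had levels of 0.34, 0.62, 0.95 and 1.71 on the hCNR1+/+ arrays and 0.09, −0.11, −0.28 and −0.55 on the hCNR1−/− arrays, lower on every hCNR1−/− array (log2 fold change −1.12, SE 0.31, adjusted p = 0.0732). *Arrb2* had levels of 2.99, 2.87, 2.99 and 2.68 on the hCNR1+/+ arrays and 3.27, 3.59, 3.39 and 3.81 on the hCNR1−/− arrays, higher on every hCNR1−/− array (log2 fold change 0.63, SE 0.20, adjusted p = 0.108). Neither passed the adjusted test, and the difference between them was not tested.

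Of the receptor kinases, *Grk6* was at 3.17 ± 0.14 and 3.42 ± 0.25 (SD, n = 4; log2 fold change 0.25, adjusted p = 0.517). *Grk5* had levels of −1.08, −1.55, −1.64 and −3.98 on the hCNR1+/+ arrays and 0.57, −0.57, −0.33 and −2.81 on the hCNR1−/− arrays. In both genotypes replicate 4 was the lowest, and the probe was not well above background on it. The log2 fold change of 1.28 had an SE of 0.79 (adjusted p = 0.382). At the end of the pathway, *Creb1* had a log2 fold change of 0.27 (adjusted p = 0.744). It was 0.76 (adjusted p = 0.0242) without hCNR1−/− replicate 4, where the *Creb1* probe was not well above background. Its adjusted p reached 0.97 with another array left out. *Crtc2*, the coactivator that joins CREB when cAMP rises, had levels of 3.62, 3.84, 4.14 and 4.43 on the hCNR1+/+ arrays and 3.57, 4.27, 4.03 and 3.96 on the hCNR1−/− arrays, overlapping groups with a log2 fold change of −0.05 (SE 0.25, adjusted p = 0.925).

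With each of the 8 arrays left out in turn, the count of members that passed was higher only without hCNR1−/− replicate 4. Then 2 members fell and 8 rose at an adjusted p below 0.05, against 323 and 1121 genes (2.92% and 10.1%) of all tested. Those that rose were *Gnai3*, *Gnas*, *Gnb2*, *Gng5*, *Gng10*, *Prkar1a*, *Rgs19* and *Creb1*, and those that fell were *Rgs2* and *Pde4a*. With any other single array left out, at most 1 member fell and at most 1 rose, against at most 0.768% and 1.29% of all tested genes.

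For 14 members a further probe of the same gene was tested, 16 such probes in all. Of these 10 had the sign of the probe used and 6 the opposite sign. The other probe of *Pde4a* gave a log2 fold change of −1.10 (SE 0.56) and that of *Gnb5* gave −0.80 (SE 0.44), the same sign at a smaller size. On both of these probes the genotypes overlapped. The *Pde4a* probe was well above background on 3 hCNR1+/+ and 1 hCNR1−/− arrays, and the *Gnb5* probe on 3 and 2. Opposite signs came from *Gnas* (−0.57, SE 1.06), *Prkacb* (−0.75, SE 0.42), *Prkar1a* (−1.15, SE 0.56), *Pde4d* (−0.72, SE 0.35), 1 of 2 probes of *Rgs19* (−0.37, SE 1.51) and *Crtc2* (0.14, SE 0.20). On these probes of *Gnas* and *Rgs19*, hCNR1+/+ replicate 3 stood at 2.24 and 4.14. The other controls lay at −3.41 to −1.43 and −3.99 to −2.57. *Rgs2* had a second probe that was well above background on 0 arrays (means −4.44 in hCNR1+/+ and −4.19 in hCNR1−/−) and was not tested. Its values thus rest on 1 of 2 probes. *Gnai3* had only 1 probe.

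**Figure D5:**
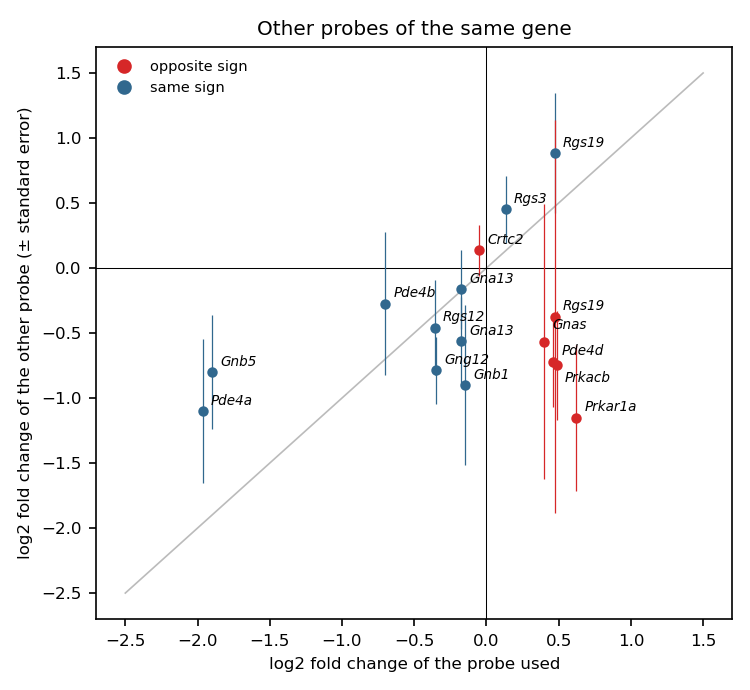
Log2 fold change of the probe used (horizontal axis) and of the other tested probes of the same gene (vertical axis, with the standard error), and the line of equal values. The 10 blue points share the sign of the probe used, and the 6 red points do not.

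A list of 120 further genes of the pathway was measured beside the members, and 68 of them were tested. At an adjusted p below 0.05, limma called 0 lower and 0 higher, against 4.24% of all tested genes in either direction. An unadjusted p below 0.05 was found for 6 (8.82%), against 21.6% of all tested genes. By sign 42 were lower and 26 higher, where 4808 of all 11072 tested genes were lower and 6264 higher. The median log2 fold change was −0.09, beside 0.08 over all tested genes. Without scaling 59 were lower and 9 higher, where the median over all tested genes was −0.47. Of 30 receptors 15 were tested, with a median of −0.23, and the glucagon receptor *Gcgr* (0.17, SE 0.29, adjusted p = 0.767) and the second cannabinoid receptor *Cnr2* (−0.38, SE 0.19, adjusted p = 0.289) did not pass. The 12 tested PKA anchors, inhibitors and the related kinase *Prkx* had a median of 0.35, or −0.20 without scaling, and included the inhibitor *Pkig* (0.23, adjusted p = 0.548). The 11 tested CREB target genes had a median of −0.32, 8 of them lower, and included *Igfbp1* (−0.13, adjusted p = 0.828). In the remaining lists the medians were −0.02 for 10 other subunits and their chaperones, with *Ric8a* at 0.05, −0.12 for 7 other phosphodiesterases, with *Pde4c* at −0.12, and −0.06 for 11 other cAMP effectors, with *Sik3* at −0.17. Only *Rgs20* (−0.12) and *Grk2* (0.39) were tested of a list of 14 other RGS, receptor kinase and cyclase genes.

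In 3 of these 68 genes (4.41%, against 17.8% of all tested genes) the genotypes did not overlap, and they are named for that reason after their values were seen. *Avpr1a*, the vasopressin receptor of the hepatocyte, was at 2.07, 2.94, 2.47 and 3.1 on the hCNR1+/+ arrays and 1.46, 1.51, 1.55 and −2.23 on the hCNR1−/− arrays (log2 fold change −2.07, SE 0.78, adjusted p = 0.164). The lowest array by far was hCNR1−/− replicate 4, where the probe was not well above background. Without that array the log2 fold change was −1.14 (adjusted p = 0.0296). With another array left out the adjusted p reached 0.29. *Pck1*, the cytosolic enzyme that commits oxaloacetate to gluconeogenesis, was at 4.99, 4.46, 5.31 and 6.17 on the hCNR1+/+ arrays and 3.01, 4.08, 4.0 and 2.62 on the hCNR1−/− arrays (log2 fold change −1.81, SE 0.44, adjusted p = 0.0515). *G6pc*, the enzyme that releases glucose, had a log2 fold change of 0.33 (adjusted p = 0.531). *Pde5a*, which hydrolyses cGMP, was at 0.44, 0.87, 0.92 and 1.33 on the hCNR1+/+ arrays and 1.45, 2.15, 2.34 and 1.92 on the hCNR1−/− arrays (log2 fold change 1.08, SE 0.27, adjusted p = 0.0557). The log2 fold change was 1.09 (adjusted p = 0.0411) without hCNR1−/− replicate 4, and the adjusted p reached 0.151 with another array left out.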

How the data were processed

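RNA of isolated hepatocytes was hybridised to 1-colour arrays, and groups were taken from the genotype labels. The labels number the 4 samples of each genotype without naming the animals, so p-values measure the spread between these samples, and their number limits the precision. The study states n = 3 per genotype for this RNA without naming the mice, and all 8 arrays were used. The authors deposited the spot intensity of the Feature Extraction software (version 12.0.3.1, array design on mm9), which is background-corrected per array with no scaling between arrays. The series table, also deposited, gives 1 score per spot, equal to within 0.005 to a z-score of log intensity per array. The Methods name no test for the arrays. The members and gene lists were chosen with earlier results of these data known.

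The deposited intensities were converted to log2 and centred on the 75th percentile of each array's 59305 non-control spots. Outlier-flagged spots were dropped and the rest averaged per probe, and a probe counted as well above background if 50% or more of its spots had that flag. Of 55681 probes, 28331 were named by unversioned accession through RefSeq (GRCm38.p6). Genes read as well above background by 4 or more of the 8 arrays were tested with their brightest such probe in limma (version 3.58.1, R version 4.3.3; lmFit, eBayes, two-sided, Benjamini-Hochberg over 11072 genes). The fit was tested on simulated data with independent normal noise per gene. These had no array effects and no floor for dim probes, so that test does not bear on either. Members given with values per array or group means are those at an adjusted p below 0.05, the 10 with the largest log2 fold change in size, those on all arrays without overlap, *Gnai1* to *Gnai3*, *Gnas*, *Adcy4*, *Adcy7* and the brightest of each role, where detected. The other tested members are given by their log2 fold change, for completeness. Of the pathway lists the rule names the genes at an adjusted p below 0.05 and the brightest of each list, and *Cnr2*, *Grk2*, *Prkx*, *G6pc*, *Pck1*, *Avpr1a* and *Pde5a* were added after their values were seen.

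Alternatives covered the scaling, the background correction (normexp with offset 50 on the median spot signal), the deposited z-scores rescaled by the mean array SD in log2, the filter on dim probes, the way from probes to genes, the variance model, array weights, a replicate block and each array left out. A slide block was not possible with 1 slide. Same-numbered arrays shared a slide column, but their correlations were 0.21, −0.16, −0.05 and 0.02, so the numbers were not taken as pairs.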

Additional observations from a re-analysis of the deposited data

Results flagged for a closer look

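In 8 of the 92 groups of 4 values examined, 1 array stood far from the other 3 of its genotype by Dixon's ratio, where chance gives about 1 in 20. Of these 8, 6 concerned hCNR1−/− replicate 4. It was low for *Gnas* (6.48, the others 7.20 to 7.34), *Gng12* (2.59, the others 3.86 to 3.99) and *Creb1* (−2.85, the others −1.05 to −0.68). It was high for the mean log2 level of the lymphocyte markers (5.30, the others 3.98 to 4.18) and of the neutrophil markers (5.60, the others 4.92 to 5.01), and low for the mean correlation with its genotype (0.942, the others 0.972 to 0.975). Median levels of probes never well above background were −2.89 on this array and −5.26 to −3.95 on the other 7.

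*Gna12* stood at 1.23 in hCNR1+/+ replicate 2, with the other controls at −2.25 to −1.96. *Rgs19* stood at −1.63 in hCNR1+/+ replicate 4, with the other controls at −1.09 to −0.99.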

How the results depend on the processing

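The adjusted test passed 3 lower and 1 higher member as reported, where it passed 1.3% and 2.94% of all tested genes. It passed 0 and 0 with quantile normalization, median scaling, no scaling, normexp, the z-scores, no filter on dim probes and the replicate block. Calls over all tested genes were also rarer there, at most 0.786% lower and 1.18% higher (quantile normalization), and 0% with the replicate block. The test gave 4 and 0 with the 75th percentile over bright probes (1.89% and 0.912% of all tested genes). It gave 0 and 1 among genes on all 8 arrays (0.645% and 4.07%). With array weights it gave 4 and 12 (11.1% and 33.3%), and passed 5.83% and 19.7% of all tested genes. At a fold change above 2 with p below 0.05, 5 members were lower and 3 higher, against 5 and 0 with no scaling, 1 and 1 with normexp, 1 lower among genes on all 8 arrays and 3 lower with array weights. Over all tested genes the shares were 3.75% and 4.78% as reported, 5.69% and 0.786% with no scaling, and 0.966% and 1.31% with normexp. The lower share was 1.73% among genes on all 8 arrays and 2.83% with array weights. With 1 array left out, the adjusted test passed 0 to 2 lower and 0 to 8 higher members, the fold threshold 3 to 5 and 2 to 4, and the median ran from 0.12 to 0.26. Of all tested genes, the adjusted test then passed 0.226% to 2.92% lower and 0.117% to 10.1% higher. The fold threshold passed 2.97% to 4.32% and 4.19% to 5.56%. The median of 0.21 was −0.35 with no scaling, −0.061 with the mean of probes and −0.12 with every probe kept. The 68 other pathway genes, 0 and 0 as reported, gave 1 lower with quantile normalization, the bright-probe percentile and the trend and robust variance, 1 lower and 1 higher with either stricter filter and with each probe, 5 and 8 with array weights, and 0 to 2 either way with 1 array left out. Of all tested genes, trend and robust variance passed 1.23% lower and 3.73% higher, and array weights 5.83% and 19.7%. The filter on all 4 arrays of a genotype passed 1.69% and 3.84%. Over all probes, each on its own, 1.43% and 3.21% passed. The shares of the other settings are those given above. The cause was not tested.

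Of 36 tested members, 17 kept their sign throughout and 19 turned at least once. In members whose genotypes did not overlap, leaving out an array could not turn the sign. Without scaling the log2 fold change was −0.071 for *Gng11*, −0.24 for *Gna11*, −0.31 for *Grk6*, −0.28 for *Creb1*, −0.14 for *Gng5*, −0.39 for *Prkaca*, −0.094 for *Pde4d*, −0.071 for *Prkacb*, −0.42 for *Rgs3*, −0.083 for *Rgs19*, −0.16 for *Gnas* and −0.26 for *Adcy9*. With the mean of probes it was −0.27 for *Prkar1a*, −0.13 for *Pde4d*, −0.13 for *Prkacb*, 0.042 for *Crtc2* and −0.084 for *Gnas*. Array weights turned *Gna13* to 0.28, *Gnb1* to 0.24 and *Prkar2a* to 0.43, normexp turned *Prkar2a* to 0.16, and the bright-probe percentile turned *Rgs3* to −0.025. With 1 array left out the ranges that crossed 0 were −0.28 to 0.41 for *Prkar2a*, −0.87 to 0.29 for *Gna12*, −0.35 to 0.061 for *Gna13*, −0.046 to 0.27 for *Prkaca*, −0.18 to 0.089 for *Crtc2*, −0.20 to 0.0034 for *Adcy6* and −0.37 to 0.27 for *Gnb1*.

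Dim probes limit these values: on hCNR1−/− replicate 4 the lowest probe well above background lay at −0.85, against −3.27 to −1.90 on the other arrays.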
